A study of Homo sapiens with 4 samples.

Results

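S100 proteins are small calcium-binding proteins with a pair of EF-hand loops. Most work as dimers that expose a hydrophobic surface when calcium binds and then attach to a partner such as an annexin, myosin or a stress protein. Several are also released from cells and act outside them through the receptors AGER and TLR4, and in carcinomas they are known for their links to motility and invasion. The 10 genes described here were chosen by symbol (S100A2, S100A3, S100A4, S100A6, S100A10, S100A11, S100A13, S100A14, S100A16 and S100P), out of 19475 symbols in the table.

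SKOV3, the source of all RNA here, is an established cell line from a human ovarian cancer. Cells on a tissue culture plate (TCP, 2 libraries, labelled day 0) were compared with tumor spheroids grown on a plate coated with the polymer thin film polymer X (2 libraries, labelled day 8). The substrate and the days in culture both differed between the groups, and so did the medium if the TCP cells were kept in the serum medium of the methods. The labels give the serum replacement protocol for all 4 libraries, so the effects of these factors cannot be told apart. All libraries came from 1 cell line, and nothing in the labels says that the replicates were separate cultures, so p-values measure the spread between these libraries. Levels are FPKM, that is, sequenced tags scaled to transcript length and to the library's tag total, with 38403000 to 44917000 tags per library. Of the labelled cell type's markers, KRT8 (143 to 269 FPKM), KRT18, ERBB2 and PAX8 were expressed in every library. MUC16 was at or under 0.021 FPKM, and EPCAM did not exceed 1.39. Here and below, "passed the test" means an adjusted p under 0.05 in limma, over 11964 tested genes, and "called" means that the change was also at least 2-fold.

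In SKOV3 spheroids, S100A4 was 1.89-fold higher than on TCP, S100A6 was 1.33-fold higher, and S100A2 and S100A3 were lower by 1.58-fold and 1.73-fold. These members passed the test, together with S100A10 (higher) and S100A11 and S100A16 (lower), which makes 3 higher and 4 lower of the 9 members tested. Of all tested genes, 81.0% passed, 37.4% higher and 43.6% lower, so 7 of 9 is near that background. None of the 9 was called by limma, against 20.2% of all tested genes (10.7% higher and 9.45% lower), while 7 had an unadjusted p under 0.05 and voom on whole tags also called 0. Their median log2 fold change was 0.11, beside -0.06 for all tested genes, and their median absolute change was 0.39, beside 0.51. S100P, at up to 7 tags in a library, was below the filter for the test. Outside these 10, S100A1 rose 8.32-fold.

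The promoter letters below are shown because S100A4, S100A3 and S100A2 lie side by side and moved in opposite ways, and S100A1 is the called gene of the same stretch. They are RefSeq sequences of build GRCh38.p14 and hold the 250 bases before the start of each gene, read 5′ to 3′ on the gene's strand. For S100A2 the first of its 2 listed windows is shown. Capitals mark matches to TATAAA (the TATA box), TGANTCA (AP-1), TTCNNNGAA (STAT) or GGGCGG (the GC box), searched on both strands, and no match shown overlaps another. The stretches are chr1:153545807-153546056 (S100A4, minus strand), chr1:153549259-153549508 (S100A3, minus strand), chr1:153565845-153566094 (S100A2, minus strand) and chr1:153628184-153628433 (S100A1, plus strand).
S100A4: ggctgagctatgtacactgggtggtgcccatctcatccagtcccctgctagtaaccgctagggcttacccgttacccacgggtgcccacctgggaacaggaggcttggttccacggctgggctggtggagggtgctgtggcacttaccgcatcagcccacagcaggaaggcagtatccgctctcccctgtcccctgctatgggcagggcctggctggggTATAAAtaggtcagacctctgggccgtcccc
S100A3: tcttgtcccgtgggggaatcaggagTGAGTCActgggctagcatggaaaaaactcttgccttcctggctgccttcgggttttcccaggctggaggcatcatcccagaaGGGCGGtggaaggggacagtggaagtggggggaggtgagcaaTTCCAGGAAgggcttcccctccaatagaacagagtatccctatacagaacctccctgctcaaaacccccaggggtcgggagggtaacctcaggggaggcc
S100A2: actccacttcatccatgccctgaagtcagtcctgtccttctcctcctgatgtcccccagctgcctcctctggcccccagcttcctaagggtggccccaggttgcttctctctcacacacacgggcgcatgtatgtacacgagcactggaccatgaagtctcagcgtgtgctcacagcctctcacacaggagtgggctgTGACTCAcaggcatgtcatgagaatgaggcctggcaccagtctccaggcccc
S100A1: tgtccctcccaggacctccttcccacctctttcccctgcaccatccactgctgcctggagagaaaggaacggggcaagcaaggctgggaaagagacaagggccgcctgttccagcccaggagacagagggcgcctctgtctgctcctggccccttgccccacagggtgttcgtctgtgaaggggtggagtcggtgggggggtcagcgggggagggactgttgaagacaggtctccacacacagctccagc
The S100A4 window had a TATA box 31 bases before the start, while those of S100A3 and S100A2 had none and each held an AP-1 match, 225 and 52 bases before the start. The S100A3 window also held 1 STAT match and 1 GC box. None of the 4 motifs matched in the S100A1 window or in the other S100A2 window, which is not shown. All 10 members were found in the RefSeq table, with 14 windows. A TATA box was present in 3 of these 14 windows (3 members: S100A4, S100A13 and S100P) and in 10.7% of all 35116 windows of that length. AP-1 was present in 2 of the 14 windows (2 members) and in 6.57% of all windows. For STAT this was 1 window (1 member) and 6.57%, and for the GC box 6 windows (6 members) and 42.6%. A match describes letters and is not a bound site.

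**Figure D1:**
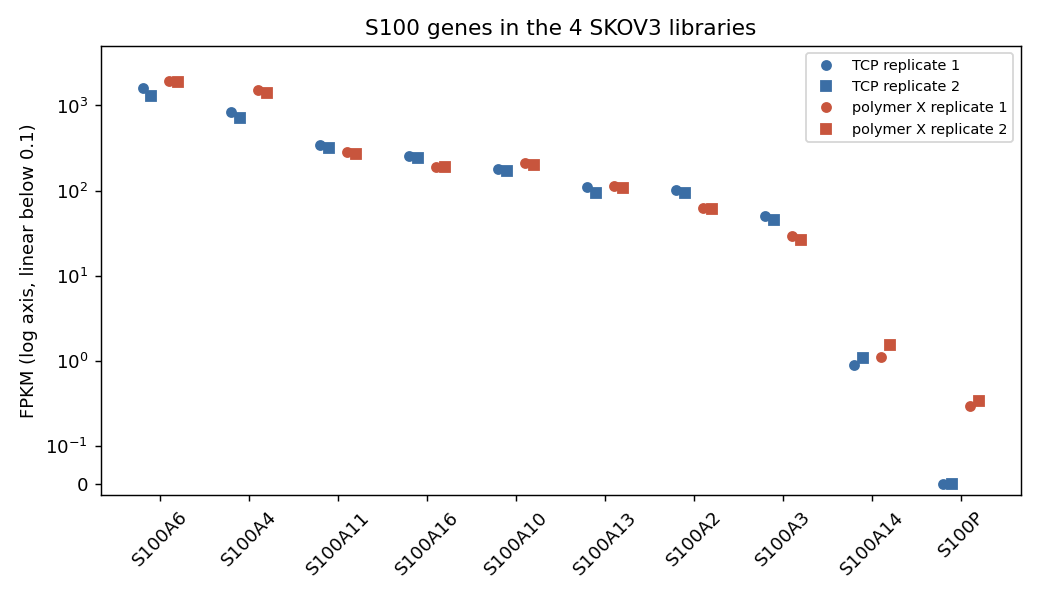
FPKM of the 10 S100 genes (log axis, linear below 0.1) in each of the 4 libraries, with TCP in blue and polymer X in red, circles for replicate 1 and squares for replicate 2. S100A6 and S100A4 lie at the top in every library, and S100P is at 0 in both TCP libraries and at 0.296 and 0.34 on polymer X.

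S100A4 and S100A6 made up most of the S100 RNA in both conditions. S100A4 (NM_002961, hg19 chromosome 1, 153516098 to 153518282, minus strand) encodes metastasin, which binds the heavy chain of non-muscle myosin and is also used as a fibroblast marker. It had 829 and 715 FPKM in the TCP libraries and 1518 and 1406 on polymer X. Both spheroid libraries lay above both TCP libraries, and the gene moved from rank 30 and 32 among 19475 symbols to rank 8 and 10. The log2 fold change was 0.92 (standard error 0.09, adjusted p = 1.1e-05 from limma). It stayed under the 2-fold minimum by a small margin, and S100A4 was called under quantile normalization (1.12), with the trend on transcript length removed (1.11) and without TCP replicate 1 (1.03). Its second transcript, NM_019554, gave 0.91.

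The other fibroblast markers did not all move one way. Of the 9 on the list, 5 were tested. COL1A2 was called higher, and COL1A1 had a log2 fold change of -0.96. COL3A1, ACTA2 and DCN were also called higher, but they were below 1 FPKM in both TCP libraries and passed the filter only through polymer X, so the count of higher calls is no measure of the list. THY1, at 0.139 and 0.184 FPKM on TCP and 0.049 and 0 on polymer X, was below the filter. The summed level of the 9 was 17.6 to 18.4 FPKM on TCP and 60.4 to 65.8 on polymer X, and none of the 9 was at 0 in every library, while PDGFRB did not exceed 0.115. Their part in the S100A4 result was not tested. All RNA came from the SKOV3 line, and in a bulk sample, more cells in a given state and more RNA per cell cannot be told apart.

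S100A6 (NM_014624, chromosome 1, 153507076 to 153508717, minus strand) encodes calcyclin, which binds CACYBP and ANXA11. It was the most abundant member, at 1598 and 1279 FPKM on TCP and 1952 and 1885 on polymer X. The groups did not overlap, but the TCP replicates were 24.9% apart. The log2 fold change was 0.42 (standard error 0.11, adjusted p = 0.0055 from limma). The adjusted p was 0.075 without polymer X replicate 1 and 0.053 without polymer X replicate 2, with log2 fold changes of 0.40 and 0.45 and a larger standard error of 0.17 in both. Without TCP replicate 2 the log2 fold change was 0.26, and with no filter on low values the adjusted p was 0.072.

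S100A2 and S100A3, the next genes along the chromosome from S100A4, were lower in the spheroids. S100A3 (NM_002960, chromosome 1, 153519809 to 153521734, minus strand), a cysteine-rich member known from the hair cuticle, had 50.6 and 45.4 FPKM on TCP and 29.5 and 26.1 on polymer X. The log2 fold change was -0.77 (standard error 0.08, adjusted p = 1e-05 from limma), with no overlap between the groups. S100A2 (NM_005978, chromosome 1, 153533585 to 153538306, minus strand), an epithelial member that binds p53, had 101 and 94.4 FPKM on TCP and 62.9 and 60.3 on polymer X, again without overlap. The log2 fold change was -0.65 (standard error 0.06, adjusted p = 5.3e-06 from limma). Under quantile normalization the changes were -0.50 for S100A3 and -0.32 for S100A2, and both passed. Within each library, the ratio of S100A4 to S100A3 was 16.4 and 15.8 on TCP and 51.5 and 53.9 on polymer X. A ratio within a library does not change with the scaling to library size. The ratio thus differed 3.28-fold between neighbouring genes (exact permutation test, two-sided p = 0.333, the smallest that 2 against 2 libraries allow).

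S100A10 and S100A11, both partners of annexins, differed by 1.18-fold and 1.19-fold and in opposite directions. S100A10 (NM_002966, chromosome 1, 151955386 to 151966714, minus strand) encodes p11, a member that has lost calcium binding and forms a tetramer with ANXA2. Its FPKM was 179 and 169 on TCP and 212 and 200 on polymer X. The change was 0.24 on the log2 scale (limma, standard error 0.06, adjusted p = 0.0055), and 0.57 under quantile normalization. S100A11 (NM_005620, chromosome 1, 152004982 to 152009511, minus strand), which binds ANXA1, had 343 and 319 FPKM on TCP and 283 and 272 on polymer X. Its log2 fold change was -0.25 (standard error 0.07, adjusted p = 0.0056 from limma), and this direction was lost under quantile normalization (0.04). The libraries of both genes did not overlap between groups, as for 8 of the 9 tested members and 90.4% of all tested genes.

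S100A16, S100A13 and S100A14 form the far end of the cluster. S100A16 (NM_080388, chromosome 1, 153579359 to 153585644, minus strand), a broadly expressed member, had 253 and 243 FPKM on TCP and 190 and 187 on polymer X. The change was -0.39 on the log2 scale (limma, standard error 0.06, adjusted p = 0.00018), with values of -0.39 and -0.37 for its other 2 transcripts and of -0.08 under quantile normalization, where it did not pass. S100A13 (NM_001024212, chromosome 1, 153591276 to 153599744, minus strand) takes part in the release of FGF1 and IL1A. It had 110 and 93.5 FPKM on TCP and 112 and 108 on polymer X, so TCP replicate 1 lay inside the spheroid range. The log2 fold change was 0.11 (standard error 0.08, adjusted p = 0.21 from limma), and it lay between 0.11 and 0.18 over its 5 transcripts. Without TCP replicate 2 it was -0.0047, and without TCP replicate 1 it was 0.23 and passed. Under quantile normalization it was 0.44 and passed as well (adjusted p = 0.00029 from limma). S100A14 (NM_020672, chromosome 1, 153586732 to 153588808, minus strand), an epithelial member, was near 1 FPKM, at 0.889 and 1.1 on TCP and 1.11 and 1.56 on polymer X. These values stood for 36, 52, 47 and 67 tags. The 95% counting intervals of 0.623 to 1.23 and 0.819 to 1.48 FPKM (exact Poisson, TCP replicate 1 and polymer X replicate 1) overlapped. That of polymer X replicate 2, 1.21 to 1.98 FPKM, overlapped the interval of TCP replicate 1 only at its edge. Overlap of intervals is not a test of a difference. The log2 fold change of S100A14, 0.23, did not pass (standard error 0.11, adjusted p = 0.084 from limma). This result turned on single libraries. Without polymer X replicate 1 the log2 fold change was 0.36 and passed (adjusted p = 0.016 from limma), and without polymer X replicate 2 it was 0.087. It was 0.15 without TCP replicate 1, -0.21 under quantile normalization, and 0.31 with the length trend removed, where it passed (adjusted p = 0.047 from limma).

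S100P (NM_005980, hg19 chromosome 4, 6695566 to 6698897, plus strand) lies outside the cluster and encodes a partner of ezrin first found in placenta. It had 0 tags in both TCP libraries and 6 and 7 tags on polymer X, or 0.296 and 0.34 FPKM. The 95% counting intervals (exact Poisson) reached up to 0.190 and 0.162 FPKM in the TCP libraries and ran from 0.109 to 0.645 and from 0.137 to 0.701 on polymer X. They overlapped, but overlap of intervals is not a test of a difference, and no test between single libraries was run. S100P passed in the fit with no filter on low values, where limma gave 0.40 on the log2 scale and an adjusted p of 0.00029. Both TCP values were 0 there and had no spread, and its standard error, 0.030, was the smallest among the members in that fit. That error rests on the spread between libraries and not on the counting intervals above, so this pass cannot decide whether S100P differed. With the TCP libraries set to a floor of 3 tags each, the ratio of the mean levels was at least 2.22-fold, a value that leaves out the counting error of the 6 and 7 tags. Intervals and floors cover counting error only.

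**Figure D2:**
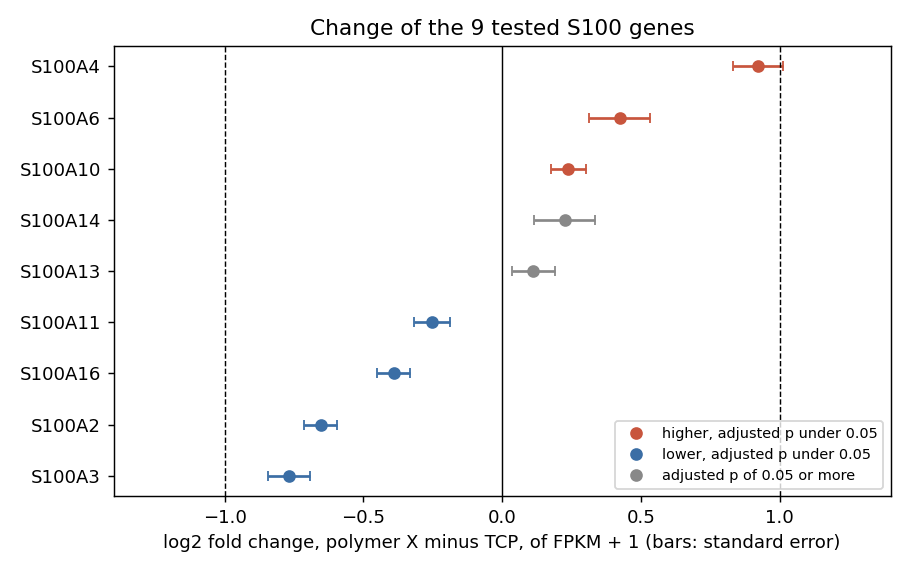
Log2 fold change of FPKM + 1, polymer X minus TCP, with its standard error from limma, for the 9 tested S100 genes, and dashed lines at the 2-fold minimum. Red, blue and grey points stand for higher, lower and not passed, and all 9 points lie between the lines, with S100A4 nearest to one at 0.92.

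The levels had nearly the same order in both conditions. On TCP it ran from S100A6 and S100A4 through S100A11, S100A16, S100A10, S100A13, S100A2 and S100A3 to S100A14 and S100P. S100A13 (93.5 to 110 FPKM) and S100A2 (94.4 to 101) did not differ beyond their spread there. On polymer X, S100A10 (200 to 212) lay above S100A16 (187 to 190), and S100A2 (60.3 to 62.9) lay well below S100A13 (108 to 112). The summed FPKM of the 10 members was 3465 and 2960 on TCP and 4362 and 4147 on polymer X, a 1.32-fold difference of the means (exact permutation test, two-sided p = 0.333, the smallest possible). Most of this sum was S100A4 and S100A6, both higher on polymer X, while S100A2, S100A3, S100A11 and S100A16 were lower.

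S100A4 held a larger share of this pool in the spheroids. Its share of the summed FPKM was 23.9% and 24.2% on TCP and 34.8% and 33.9% on polymer X. S100A6 held 43.2% to 46.1% in all 4 libraries, and its shares on polymer X lay inside the TCP range. The share of S100A11 was 9.91% and 10.8% on TCP and 6.50% and 6.57% on polymer X. For S100A16 it was 7.29% and 8.20%, then 4.36% and 4.52%, and for S100A2 it was 2.90% and 3.19%, then 1.44% and 1.45%. No share could reach a p below 0.333 with 2 against 2 libraries. Shares add up to a fixed total, so a higher share of 1 gene lowers the others.

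**Figure D3:**
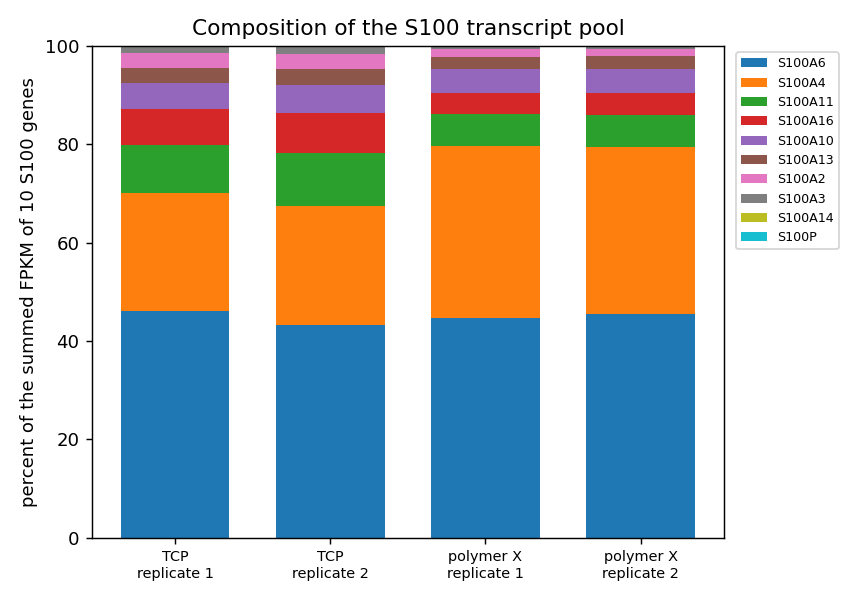
Percent of the summed FPKM of the 10 S100 genes that each took in the 4 libraries, as stacked bars from 0 to 100. The S100A4 segment is larger in both polymer X libraries (33.9% and 34.8%) than in both TCP libraries (23.9% and 24.2%), while that of S100A6 stays between 43.2% and 46.1%.

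S100 transcripts are short, from 506 to 1201 bases, and short transcripts differed between libraries as a class. Among the 277 tested genes of at most 700 bases, TCP replicate 1 exceeded TCP replicate 2 by a median of 0.18 on the log2 scale, against -0.0026 over all tested genes. Of the 9 tested members, 8 were higher in TCP replicate 1 than in TCP replicate 2, with S100A14 as the exception. The same 8 were higher in polymer X replicate 1 than in polymer X replicate 2. Between conditions, genes of at most 700 bases had a median log2 fold change of -0.36, and the 723 genes of over 700 and up to 1100 bases one of -0.23. S100A4, S100A6, S100A13 and S100A11 lay above the median of the shorter class. In the next class, S100A10 and S100A14 lay above the median, and S100A2 and S100A3 below it. S100A16, which is longer, lay below the median of its own class. With the trend on length removed, the members' median was 0.28 in place of 0.11, and 5 passed higher and 3 lower. S100A13 then passed at 0.28 and S100A11 no longer did, at -0.09. This alternative was added after the values were seen.

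**Figure D4:**
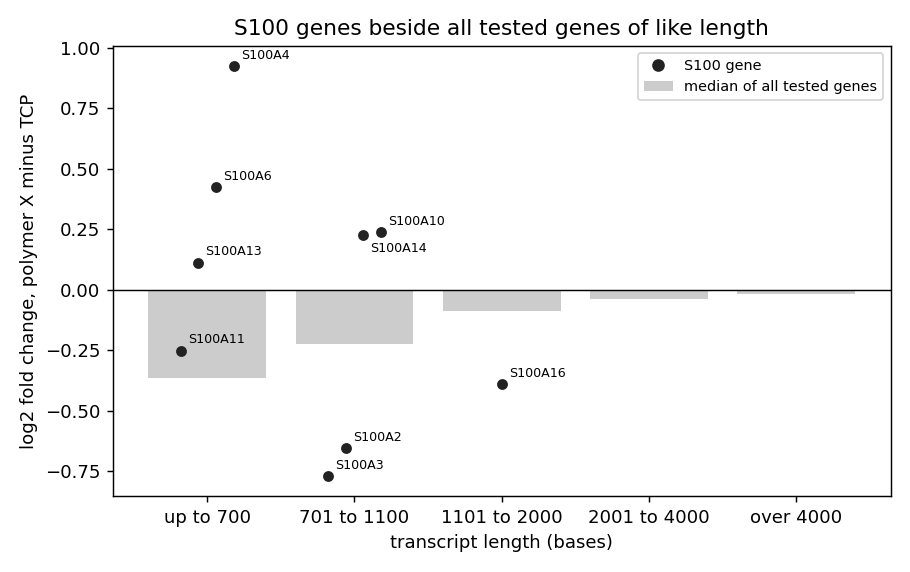
Log2 fold change (polymer X minus TCP) of the 9 tested S100 genes as points, beside the median of all tested genes of like transcript length as grey bars. The bars run from -0.36 for the shortest transcripts to -0.019 for those over 4000 bases, and S100A4 stands 0.92 above 0 in the shortest class.

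Among the other S100 genes, 2 of 11 were expressed at 1 FPKM or more, and both lie in the same cluster. S100A1 (NM_006271, chromosome 1, 153600873 to 153604513, plus strand), known from heart and skeletal muscle, had 4.69 and 4.01 FPKM on TCP and 38 and 34.4 on polymer X. It was the 1 S100 gene that was called, at 2.80 on the log2 scale (limma, standard error 0.08, adjusted p = 4.6e-09). Its span lies within that of 1 S100A13 transcript on the opposite strand, NM_001024210, and the counting did not use strand. That transcript, which also runs into CHTOP, had a log2 fold change of 0.15, and the S100A13 transcript used here does not reach S100A1. S100A5, which lies between S100A6 and S100A4, had 9.1 and 8.32 FPKM on TCP and 13.4 and 13.5 on polymer X (log2 fold change 0.57, adjusted p = 2.9e-05 from limma). The inflammatory members S100A8, S100A9 and S100A12, the psoriasin genes S100A7, S100A7A and S100A7L2, and S100B and S100G had at most 3 tags in any library. S100Z had 2 to 5 tags. Leukocytes, which carry S100A8, S100A9 and S100A12, had 3 of 10 listed markers (CD3E, FCGR3A and MS4A1) at 0 tags in every library and 1 (CD68) that passed the filter. The summed level of these markers was 17.3 to 17.5 FPKM on TCP and 43.4 to 46.1 on polymer X, nearly all of it CD68. The 6 endothelial markers summed to at most 0.987 FPKM.

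The annexins bind membranes when calcium rises, and several carry S100 proteins with them. Of the 13 annexins in the table, 11 were tested, 1 was called higher and 3 lower, and their median log2 fold change was -0.46. The called share was 36.4%, beside 20.2% of all tested genes, and ANXA8 and ANXA8L1 passed the filter only through TCP. ANXA4 rose from 64.2 and 60.9 FPKM on TCP to 229 and 230 on polymer X, or by 1.86 on the log2 scale (adjusted p = 6.2e-09 from limma). ANXA3 fell from 50.0 and 46.6 to 14.7 and 17.3 (log2 fold change -1.54). ANXA8 and ANXA8L1 fell with log2 fold changes of -1.93 and -2.21, but these near-identical copies share sequence and their values are uncertain. The annexins that bind S100 members changed less than 2-fold. ANXA2 had 700 and 681 FPKM on TCP and 504 and 496 on polymer X, which is -0.46 on the log2 scale (adjusted p = 0.00012 from limma). Its partner S100A10 was slightly higher, so that the ratio of S100A10 to ANXA2 was 0.256 and 0.249 on TCP and 0.420 and 0.404 on polymer X. For ANXA1 and S100A11 the directions were the other way round. ANXA1 had a log2 fold change of 0.42, and the ratio of S100A11 to ANXA1 went from 0.965 and 0.990 to 0.616 and 0.614. ANXA11, a partner of S100A6, had a log2 fold change of -0.52, and the ratio of S100A6 to ANXA11 went from 29.6 and 22.9 to 51.3 and 49.5. Each of these ratios had a two-sided p of 0.333 in the exact permutation test, the smallest that 2 against 2 libraries allow. The annexin transcripts are longer than those of their S100 partners, and the part of the trend on length in these ratios was not tested.

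Of 26 other binding partners and receptors, 20 were tested, with 3 called higher and 6 lower and a median log2 fold change of -0.49. The called share was 45%, beside 20.2% of all tested genes, but CD36 and KCNK3, called higher, passed the filter only through polymer X. EZR, the membrane linker ezrin to which S100P binds, fell from 329 and 345 FPKM on TCP to 59.8 and 59.4 on polymer X (log2 fold change -2.48, adjusted p = 1.6e-09 from limma). DLC1, a tumour suppressor that binds S100A10, fell from 25.8 and 26.5 to 4.45 and 4.67 (log2 fold change -2.29). STIP1 and FKBP4, co-chaperones that bind S100A6, fell by 1.43 and 1.27 on the log2 scale, and CACYBP, named for its binding of calcyclin, fell by 1.11. AHNAK, a giant scaffold of the S100A10 and ANXA2 complex, was called lower at -1.07 and ranked after these 5. CD36, which binds S100A8 and S100A9, had 0 and 0.014 FPKM on TCP and 4.27 and 3.41 on polymer X. IL1A, a cargo of S100A13, rose from 3.96 and 3.88 to 18.6 and 18.7 (log2 fold change 2.00), and KCNK3, a potassium channel that binds S100A10, rose from 0.203 and 0.275 to 2.68 and 2.64. FGF1, the other cargo of S100A13, was named after its values were seen. It had 119 and 87 tags on TCP and 0 in both spheroid libraries, and was below the filter. The receptor AGER had at most 2 tags, on the transcript row of an alternate haplotype, and TLR4 had 0. S100PBP, which binds S100P, had a log2 fold change of 0.30 (adjusted p = 0.0027 from limma).

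The called share of other EF-hand calcium sensors, 19.0%, was near the 20.2% of all tested genes. Of 34, 21 were tested, 2 were called higher (HPCAL1 at 1.30 and CALB1 at 1.26 on the log2 scale) and 2 lower (among them EFHD2 at -1.23), with a median of -0.30. Without the fold minimum, 5 passed higher and 12 lower, beside 3 and 4 for the S100 members. Of all tested genes, 37.4% passed higher and 43.6% lower. The difference between these lists was not tested.

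**Figure D5:**
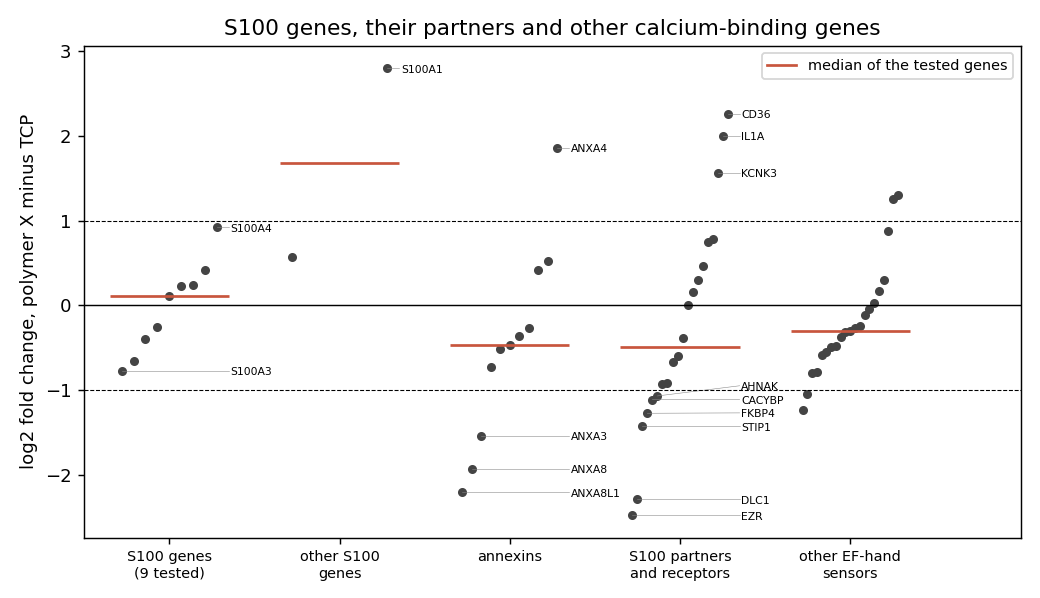
Log2 fold change (polymer X minus TCP) of each tested gene of the S100 family and of 3 related lists, with the median of each list as a red line, dashed lines at the 2-fold minimum, and names for the outermost S100 members and the called genes of the lists other than the EF-hand sensors. The 9 S100 members lie inside the dashed lines, and S100A1 (2.80), ANXA4 (1.86) and EZR (-2.48) lie well outside them.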

How the data were processed

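RNA-seq of 2 TCP and 2 polymer X libraries was used. The authors deposited FPKM values for RefSeq transcripts of hg19, counted with HOMER on exons of both strands and rounded to 3 decimals. The submitters' processing notes also name STAR 2.4.0 and DESeq, with no role given. FPKM times length fell on whole tags, which gave the tag totals: all low values (under 15 tags) lay within 0.1 of a whole number. Between 52.3% and 57.5% of these numbers were even, and if tags came in pairs, counting intervals are too narrow.

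Each symbol was represented by its most abundant transcript. The test was limma (version 3.58.1, R 4.3.3) on log2(FPKM + 1), using the trended prior variance and Benjamini-Hochberg adjustment, for genes that reached 1 FPKM in 2 or more libraries. Fold changes of low genes are understated on this scale. Genes were called at an adjusted p under 0.05 and a log2 fold change of at least 1 in either direction. Transcript values came from the same model on all transcripts.

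The members and lists were chosen with earlier results of these data known, and lists were written from general knowledge. Named were all members, other S100 genes at 1 FPKM or more, the 5 called genes with the largest change per direction in each other list, and ANXA1, ANXA2, ANXA11, AGER and S100PBP. Other genes were named after their values were seen, and a few genes that the rule names are not reported here. Near the cluster, called genes were named, and for the members with the largest rise and fall the 3 genes nearest in Euclidean distance. Alternatives were a pseudocount of 0.1, no filter, a mean FPKM of at least 5, quantile and median scaling, summed transcripts, no trend, the replicate block and each library left out. Added after seeing the data were removal of the length trend (loess, span 0.4), voom on tags and no fold minimum. The procedure was also run on simulated data. These held no trend on transcript length and no shift between replicates, so the run does not cover those features of the real libraries. Promoters came from RefSeq (GRCh38.p14) and were matched by symbol, never by hg19 coordinates. Plots used matplotlib 3.10.9.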

Additional observations from a re-analysis of the deposited data

How the results depend on the processing

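S100A2, S100A3, S100A4, S100A6, S100A10 and S100A16 kept their direction under every alternative. Direction was lost for S100A11 (0.043) and S100A14 (-0.21) under quantile normalization and for S100A13 (-0.0047) without TCP replicate 2. The members called numbered 0, except for 1 higher (S100A4) under quantile normalization, with the length trend removed and without TCP replicate 1. Without a fold minimum, which by construction admits more genes, 4477 genes passed higher and 5212 lower, with 3 and 4 members, 2 other S100 genes higher, 3 and 8 annexins, 7 and 11 partners and 5 and 12 EF-hand sensors. Requiring a mean of 5 FPKM tests fewer genes, and 702 genes, 0 members and 1 partner were called higher and 1 annexin lower. The annexins called higher numbered 2 with voom. The EF-hand sensors called numbered 4 higher with summed transcripts and 0 lower under quantile normalization. The cause was not tested. The members' median of 0.11 (replicate SD 0.042) moved to 0.17 with no filter, where S100P was added. With a required mean of 5 FPKM, where S100A14 dropped out, the median was -0.069. In both, the log2 fold changes of the other members stayed the same. The median was 0.043 under quantile normalization, 0.15 under median scaling, 0.16 with summed transcripts and 0.28 with the length trend removed.

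When 1 library was left out at a time, the lone library of a group was assumed to vary like the others. Then 1289 to 1325 genes were called higher and 1053 to 1234 lower, with 0 to 1 members higher and 0 lower. The members' median ranged from -0.0047 (without TCP replicate 2) to 0.15. The other lists gave 1 other S100 gene higher and 0 lower, 1 annexin higher and 3 lower, 3 partners higher and 6 lower, and 2 to 3 EF-hand sensors higher and 2 lower. The log2 ratio of the summed FPKM stayed within its replicate SD of 0.12 under the 3 alternatives run.

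With the replicate block, 0 members were called, and 4 passed higher and 4 lower, S100A14 (0.23, adjusted p = 0.028 from limma) being added. Libraries with the same number had deviations from their group means that correlated at 0.093 over 11964 genes. This low value cannot exclude pairing, and the labels do not say whether the numbers pair the libraries. Depth limits S100P and S100A14.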

Other observations

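Genes that lie within 200000 bases of the stretch from S100A10 to S100A1 on chromosome 1 and are no S100 genes moved in both directions. Of 59, 10 were tested, 2 were called higher and 1 lower. INTS3, a subunit of the Integrator complex, rose from 11.3 and 11.6 FPKM on TCP to 24.9 and 27.2 on polymer X (log2 fold change 1.12). ILF2, a double-stranded RNA binding protein, fell from 139 and 136 to 46.3 and 43.5 (log2 fold change -1.59). The fused-type S100 genes, whose long products carry an S100 domain at one end (FLG, FLG2, HRNR, RPTN, TCHH, TCHHL1 and CRNN), summed to at most 0.136 FPKM in any library, and none passed the filter.

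By Euclidean distance of centred log2(FPKM + 1) over the 4 libraries, the 3 genes nearest to S100A4 were C19orf81, SLC40A1 and SLC2A10, with distances from 0.0437 to 0.0565. All 3 were below 3 FPKM in every library, where the pseudocount shapes the profile. The 3 nearest to S100A3 were GADD45GIP1, MRPL57 and KRT7, with distances from 0.0267 to 0.0313 and log2 fold changes from -0.79 to -0.76. With 4 libraries in 2 groups, such a profile is shared by many genes.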
